A study of Mus musculus with 5 samples.

Results

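The genes described here make, conjugate and move bile acids in the liver, or sense them. They are 10 of the 32285 genes in the deposited matrix, chosen by symbol, with earlier results of these data known: Cyp7a1 and Cyp8b1 of the classic synthesis pathway, Cyp27a1 and Cyp7b1 of the alternative pathway, the conjugating enzymes Slc27a5 and Baat, the transporters Slc10a1 and Abcb11, and the nuclear receptors Nr1h4 and Nr0b2. Each gene was found once. Their level was taken over the hepatocytes of 5 single-cell libraries, which are barcodes holding 1000 or more UMIs of 500 or more genes, with 2% to 30% of the UMIs mitochondrial.

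Liver hepatocytes of male wild-type C57BL/6J mice on normal chow (lab diet #5053) were profiled with 10x Genomics 3' chemistry, 1 library per time. All mice had been trained for 3 days on 16 h of fasting overnight and 8 h of feeding by day, and were given food with 20% sucrose in the drinking water on the last day. The fed library (0 h) was taken after 4 h of feeding at clock hour 13, and the 4 others after 4, 8, 16 and 24 h without food or sucrose, at clock hours 17, 21, 5 and 13. The series title names changes of gluconeogenic gene expression between fed, fasted and starved states as the subject. Hours of fasting and clock hour changed together except between 24 h and 0 h, so they cannot be told apart in the other comparisons. The number of animals behind a library is not given in the sources used here. With 1 library per time there was no replicate error and no test, and all intervals are 95% intervals for counting error only, exact except those for the change of an axis ratio, which are normal approximations.

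Bile acids are made from cholesterol in hepatocytes. Cyp7a1 sets the rate of the classic pathway, Cyp8b1 adds the hydroxyl group that separates cholic acid from the other primary bile acids, and Cyp27a1 and Cyp7b1 carry the alternative pathway. Bile acids bind the receptor encoded by Nr1h4 (FXR), which induces Nr0b2 (SHP), a repressor without a DNA-binding domain that lowers Cyp7a1 and Cyp8b1, and which also induces the export pump Abcb11 (BSEP). Hepatocytes near the portal vein express Cyp2f2 and those near the central vein Cyp2e1, so these transcripts order dissociated cells along the lobule.

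RefSeq promoter entries on GRCm38.p6 were matched for 6 of the 10 genes, without Cyp7a1, Cyp7b1, Slc27a5 and Baat. The stretches of Cyp8b1 (chr9:121916306-121916555, minus strand), Abcb11 (chr2:69342617-69342866, minus strand) and Nr0b2 (chr4:133553126-133553375, plus strand) are shown because these genes are called below and their stretches held more than a receptor half-site. Each is the 250 bases before the annotated start, read 5′ to 3′ on the strand of the gene, and capitals mark motif matches. The motifs were chosen after these sequences had been read, and both strands were searched.
Cyp8b1: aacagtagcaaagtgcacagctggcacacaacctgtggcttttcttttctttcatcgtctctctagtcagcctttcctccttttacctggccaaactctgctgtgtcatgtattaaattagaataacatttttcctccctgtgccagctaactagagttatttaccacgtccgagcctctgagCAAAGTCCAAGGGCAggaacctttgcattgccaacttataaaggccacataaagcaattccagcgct
Abcb11: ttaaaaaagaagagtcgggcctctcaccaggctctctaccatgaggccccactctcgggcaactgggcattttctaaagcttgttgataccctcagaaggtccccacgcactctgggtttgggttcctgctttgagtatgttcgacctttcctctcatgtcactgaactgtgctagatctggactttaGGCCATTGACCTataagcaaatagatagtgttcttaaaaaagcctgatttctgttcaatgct
Nr0b2: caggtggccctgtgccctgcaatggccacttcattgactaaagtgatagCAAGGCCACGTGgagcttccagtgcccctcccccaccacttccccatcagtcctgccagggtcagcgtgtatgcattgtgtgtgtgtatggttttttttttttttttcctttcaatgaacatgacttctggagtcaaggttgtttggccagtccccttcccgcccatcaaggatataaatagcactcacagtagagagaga
The Cyp8b1 stretch held CAAAGTCCA, a form of the HNF4 element, from base 67 to base 59 before the start. It overlapped CAAGGGCA, a match to the LRH-1 element CAAGGNCA, from base 60 to base 53. Of 32851 promoter stretches of this length, 0.384% held CAAAGTCCA and 5.53% held CAAGGNCA. The Abcb11 stretch held GGCCATTGACC, a match to the FXR-type inverted repeat (GGNCA and TGNCC with 1 base between), from base 62 to base 52, and 0.575% of all stretches held such a match. It overlapped TGACCT, the nuclear receptor half-site AGGTCA on the other strand, from base 56 to base 51 (14.0% of all stretches). The Nr0b2 stretch held CAAGGCCA, an LRH-1 match, from base 201 to base 194, overlapping the E-box CACGTG from base 195 to base 190 (6.02% of all stretches). The other matched genes had a half-site alone (Nr1h4 and Slc10a1) or no match (Cyp27a1), and the D-box TTATGTAA was found in none of them. These matches are letters in a window and not measured binding sites.

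The libraries differed in yield and depth, which touches all levels below. Each held exactly 10000 barcodes, and no label says whether the submitters set that number. Of these, 3325 passed the UMI and gene limits at 8 h and 9363 to 10000 in the other libraries. Of all barcodes, 7826, 4567, 2716, 9125 and 4576 (28810 in all) counted as hepatocytes at 0, 4, 8, 16 and 24 h. Their median UMI count ranged from 4391 at 16 h to 15005 at 8 h, their median mitochondrial share from 9.79% to 19.1%, and their summed non-mitochondrial UMIs from 33521626 to 45532684. Barcodes under 2% mitochondrial UMIs were left out, and were most frequent at 4 h (5345) and 24 h (5400). Of the barcode sequences, 259 occurred in 2 or more libraries, 73 of them among hepatocytes. All 7 hepatocyte markers (Alb, Apoa1, Ttr, Apoc3, Serpina1c, Trf, Fgb) were detected in every library, at 94458 to 121438 CPM summed (counts scaled to 1000000 non-mitochondrial UMIs). The 12 endothelial markers summed to 15.3 to 111 CPM and the 10 macrophage markers to 0.148 to 43.5 CPM, both highest in the fed library, where 203 barcodes (2.59%) carried markers of another cell type against 0.197% to 0.612% in the fasted libraries. The 7 cholangiocyte markers summed to 165 to 301 CPM, highest at 16 h, where 1 gene gave 225 CPM and 4 were at 0. The 5 erythroid markers summed to 24.5 to 67.0 CPM, highest at 8 h, where 4 were at 0. Leaving these barcodes out ended 1 member call (Abcb11 at 8 h, below) and changed no other count of called members, between libraries or along the axis.

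Transcripts of the lysed cells reach all droplets, so the members were also read in the 259 fed barcodes with endothelial markers (median 1753 UMIs), of which 152 also lay within the hepatocyte limits and 107 were under 2% mitochondrial. There, 8 members stood under hepatocytes: Abcb11 at 9.26%, Cyp7b1 at 11.1%, Slc10a1 at 11.8%, Slc27a5 at 13.5%, Cyp8b1 at 18.9%, Cyp27a1 at 24.9%, Cyp7a1 at 28.9% and Nr0b2 at 39.5% of the fed hepatocyte level. Albumin stood at 13.9%. Nr1h4 stood at 78.9% and Baat at 128%. Among the 152 within the limits these were 84.0% and 110% (Baat 252 CPM, 197 to 317), and among the other 107 they were 71.2% and 155%. With every cell thinned to 1000 UMIs, 28.2% of the endothelial-marker barcodes (interval 22.8% to 34.1%) and 21.3% of hepatocytes (20.4% to 22.2%) held a Baat UMI. For Nr1h4 the shares were 9.65% and 9.09%. Levels of Baat and Nr1h4 are therefore given as values of the barcodes and are not read as hepatocyte expression.

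Cyp7a1 was highest after 4 h of fasting and lowest after 16 h. From the fed library (0 h) to the 24 h library, in time order, its level was 72.6, 128, 71.4, 26.9 and 33.5 CPM. The intervals of the fed and 8 h libraries overlapped, and those of all other neighbours in this order did not. Against fed, the 4 h library had a log2 ratio of 0.81 (0.75 to 0.88), short of the 2-fold rule used for calls (at least 2-fold apart, with at least 50 CPM in either library). The 16 h library had -1.43 (-1.54 to -1.32) and the 24 h library -1.12 (-1.21 to -1.02), both called lower. The 16 h call held in all 12 other settings tried, and the 24 h call ended in 3, among them both other scalings. The 4 h ratio ranged from -0.10 with a mitochondrial limit of 15% to 1.61 among barcodes of 3000 to 12000 UMIs, a window chosen after seeing the data, and the 24 h ratio in that window was -0.51.

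Cyp8b1 and Cyp27a1, the 12-alpha-hydroxylase and the 27-hydroxylase, peaked together at 8 h. In time order, Cyp8b1 stood at 222, 253, 491, 163 and 252 CPM. The 4 h and 24 h intervals overlapped, the 8 h library was above all others, and the 16 h library was below the fed library. Cyp27a1 stood at 118, 201, 289, 126 and 149 CPM, with no overlap of neighbouring intervals. The log2 ratio of 8 h to fed was 1.14 (1.11 to 1.18) for Cyp8b1 and 1.29 (1.24 to 1.35) for Cyp27a1. Both calls held in all 12 settings. From 8 h to 16 h Cyp8b1 fell by 1.59 on the log2 scale and Cyp27a1 by 1.19.

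Cyp7b1, the oxysterol 7-alpha-hydroxylase, did not follow Cyp27a1. In time order it stood at 151, 120, 170, 196 and 62.5 CPM. No neighbouring intervals overlapped, and the 24 h library was the low one. The log2 ratio of 24 h to fed, which share the clock hour, was -1.27 (-1.34 to -1.20), and that of 24 h to 16 h was -1.65 (-1.72 to -1.58). Both calls held in all 12 settings.

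**Figure D1:**
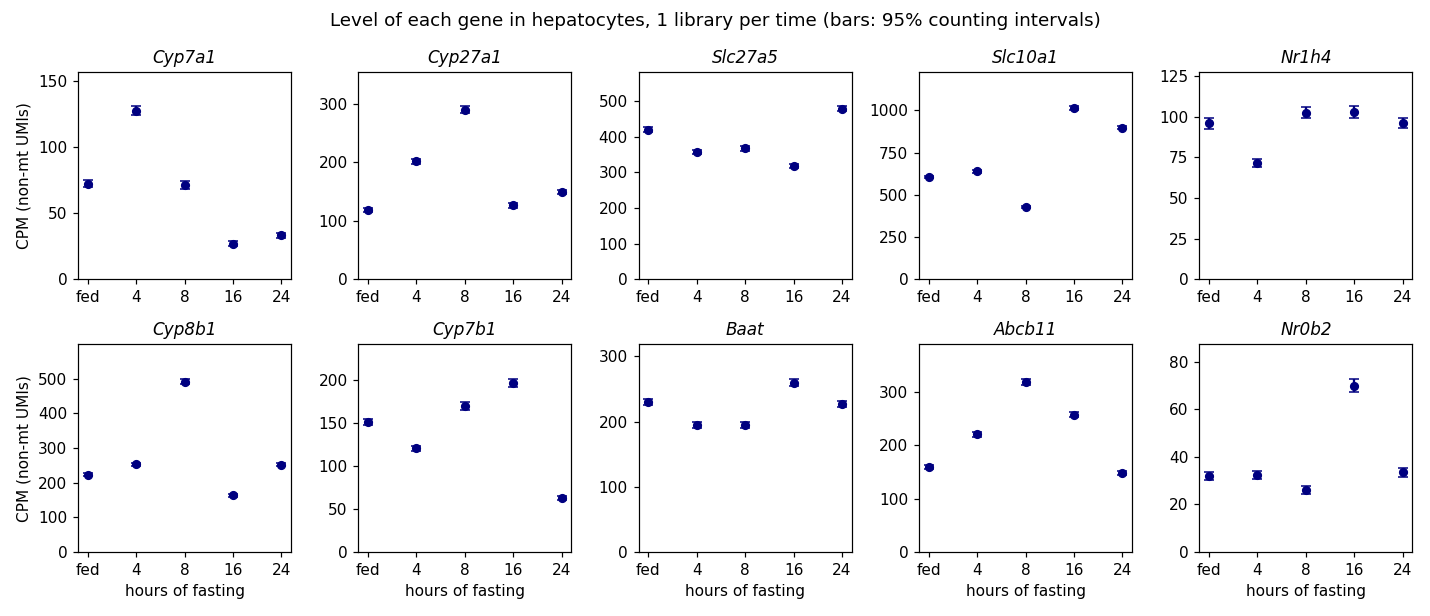
Level of each gene in the hepatocytes of the 5 libraries, in CPM of non-mitochondrial UMIs from 0, against hours of fasting. Points are 1 library each and bars are 95% counting intervals. Cyp7a1 peaked at 4 h (128 CPM), Cyp8b1, Cyp27a1 and Abcb11 at 8 h, Slc10a1 and Nr0b2 at 16 h, and Cyp7b1 was low at 24 h (62.5 CPM).

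Slc27a5 and Baat, which activate bile acids with coenzyme A and join them to taurine or glycine, were not called between any libraries compared. Slc27a5 stood at 419 CPM, 358 CPM, 367 CPM, 318 CPM and 478 CPM from 0 h to 24 h, and the 4 h and 8 h intervals overlapped. Its log2 ratio to fed ranged from -0.40 at 16 h to 0.19 at 24 h. Baat stood at 230 CPM, 195 CPM, 194 CPM, 260 CPM and 227 CPM, with overlap of 4 h and 8 h and of 24 h and fed. No library was 2-fold apart from another for either gene.

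Slc10a1 (NTCP), which takes bile acids up from portal blood, was highest in the late libraries. In time order it stood at 606, 639, 429, 1012 and 897 CPM, with no overlap. Against fed, the log2 ratios of the 8, 16 and 24 h libraries were -0.50, 0.74 and 0.56, none past 2-fold, and the step from 8 h to 16 h was 1.24 (1.21 to 1.27). Abcb11, the canalicular export pump, stood at 159 CPM, 221 CPM, 318 CPM, 258 CPM and 148 CPM from 0 h to 24 h, again with no overlap. Its 8 h log2 ratio of 1.004 (0.96 to 1.05) lay at the limit of the rule. The call ended in 7 of 12 settings, among them the one without barcodes of other cell types, and the lowest value was 0.89. The uptake and export genes thus had different highest libraries, 16 h and 8 h.

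Nr1h4, the bile acid receptor, stood at 95.8 CPM, 71.4 CPM, 102 CPM, 103 CPM and 96.2 CPM from 0 h to 24 h. The 4 h library was the low one, with a log2 ratio to fed of -0.42 (-0.49 to -0.35). The intervals of all other neighbours in the order of levels overlapped, while 8 h and 16 h were slightly above fed, by 0.09 (0.03 to 0.16) and 0.10 (0.03 to 0.17). Nr0b2 stood at 31.9 CPM, 32.3 CPM, 26.0 CPM, 69.8 CPM and 33.4 CPM. The 16 h library was above all others, and those at 0, 4 and 24 h overlapped. The log2 ratio of 16 h to fed was 1.13 (1.03 to 1.23), and 0.94 with a mitochondrial limit of 15%, which ends the call. Nr0b2 met the 50 CPM minimum only through the 16 h library. Of the 5 libraries, the 16 h library had the lowest level of Cyp7a1, Cyp8b1 and Slc27a5 and the highest of Cyp7b1, Baat, Slc10a1 and Nr0b2, and of Nr1h4 with overlap of 8 h.

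Counted together, no member was called at 4 h (0 of the 9 that met the minimum), where 5.73% of all tested genes were called higher and 5.97% lower. At 8 h, 3 of 9 were called higher (Cyp8b1, Cyp27a1 and Abcb11), against 7.95% of all genes, and 0 lower, against 11.8%. At 16 h, 1 of 10 was called higher (Nr0b2, at 50 CPM only in this library), against 3.31%, and 1 lower (Cyp7a1), against 4.04%. At 24 h, 0 of 9 were called higher, against 6.68%, and 2 lower (Cyp7a1 and Cyp7b1), against 10.6%. The median ratio over members (log2) was 0.08, 0.09, 0.14 and 0.01 in time order, beside -0.03, -0.04, 0.00 and -0.03 over all tested genes. These 4 comparisons share the fed library. With TMM scaling the median over all genes moved to 0.13, 0.17, 0.09 and 0.15, and all ratios to fed moved up with it.

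Between neighbouring libraries, 0 of 9 members were called from 4 h to 8 h, against 1.11% of all genes higher and 2.22% lower. From 8 h to 16 h, 2 of 10 rose (Slc10a1 by 1.24 and Nr0b2 by 1.43 on the log2 scale), against 11.3%, and 3 fell (Cyp7a1 by 1.41, Cyp8b1 by 1.59 and Cyp27a1 by 1.19), against 9.74%. All 5 calls held in all 12 settings. The 8 h library was the deepest and the 16 h library the shallowest, and among barcodes of 3000 to 12000 UMIs the step was -2.02 for Cyp7a1, -1.86 for Cyp8b1 and -1.53 for Cyp27a1. From 16 h to 24 h, 2 of 9 fell (Cyp7b1 by 1.65 and Nr0b2 by 1.06), against 6.92%, and 0 rose, against 7.52%. The Nr0b2 call from 16 h to 24 h ended in 3 settings, both other scalings among them. In both of these steps Nr0b2 met the 50 CPM minimum only through the 16 h library. Of the 3 steps, the one from 8 h to 16 h had the most calls among members. It also had the largest shares called among all genes, so this is not particular to the members.

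**Figure D2:**
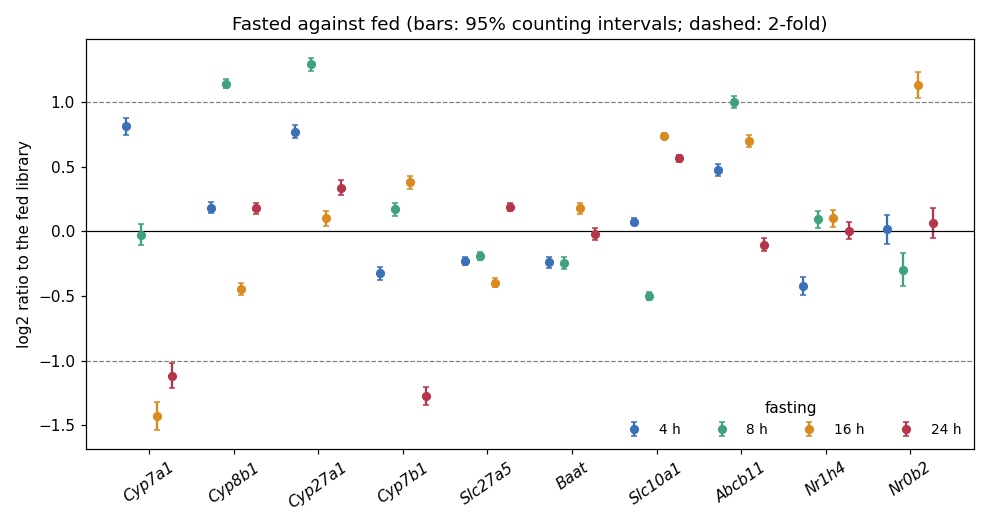
Log2 ratio of each fasted library to the fed library for the 10 genes, with 95% counting intervals as bars and 2-fold as dashed lines. Points past the dashed lines are Cyp8b1 and Cyp27a1 at 8 h, Nr0b2 at 16 h, Cyp7a1 at 16 h and 24 h and Cyp7b1 at 24 h, with Abcb11 at 8 h on the upper line.

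Cells of each library were then ordered by the log2 ratio of Cyp2f2 to Cyp2e1 and divided into 5 equal parts, from the Cyp2f2 end to the Cyp2e1 end. This gives an order of cells and not a position in tissue. The median UMI count differed between the parts, from 2384 to 20614 at 4 h and from 2854 to 14073 at 24 h, and less at the other times. Cyp7a1 was highest at the Cyp2e1 end in every library. In the fed library it stood at 12.7, 16.9, 18.2, 72.2 and 337 CPM from the Cyp2f2 end to the Cyp2e1 end, a log2 ratio between the outer parts of 4.72 (4.43 to 5.03). The fasted libraries had 5.01, 5.46, 5.92 and 3.86 in time order, and at most 208 Cyp7a1 UMIs (4 h) and as few as 11 (16 h) lay behind the level of the Cyp2f2 end. The fed level there was no higher than in the endothelial-marker barcodes (21.0 CPM, 10.1 to 38.6), which were shallower (median 1753 UMIs, against 5337). Whether it is background was not tested, so the ratio describes barcodes. The last part held 68.1% of all Cyp7a1 UMIs in the fed library but 14.7% of all UMIs, and between 50.6% (24 h) and 81.4% (8 h) in the others. Thinned to 1000 UMIs, 21.8% of fed cells at the Cyp2e1 end held a Cyp7a1 UMI (47.7% unthinned), against 1.15% at the Cyp2f2 end (4.98% unthinned) and 0.386% of the endothelial-marker barcodes.

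At 4 h Cyp7a1 was higher than fed in the middle part and in both parts toward the Cyp2e1 end. In the 2 parts toward the Cyp2f2 end it stood at 17.8 CPM and 19.4 CPM, against 12.7 CPM and 16.9 CPM. All were under the level of the fed endothelial-marker barcodes. Those barcodes were shallower (median 1753 UMIs, against 16992 and 20614 in these parts at 4 h). Their level therefore cannot show whether these values are background, and no difference is read. At the Cyp2e1 end Cyp7a1 stood at 576 CPM against 337 CPM. In the neighbouring part it stood at 219 CPM against 72.2 CPM, a log2 difference of 1.60 (1.44 to 1.76). In the middle part it stood at 54.4 CPM against 18.2 CPM (1.58, 1.32 to 1.84), where the fed level was also under that of the endothelial-marker barcodes. The share of hepatocytes with more Cyp2e1 than Cyp2f2 UMIs was 42.7% at 4 h, against 23.9% in the fed library and 20.3%, 29.4% and 13.3% at 8, 16 and 24 h. The parts of different libraries are thus not equal in Cyp2e1 content. Both the Cyp7a1 level and this share were highest at 4 h.

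Cells were therefore also grouped by their own Cyp2e1 content, a grouping chosen after the values above were seen. Among cells with more than 50 Cyp2e1 UMIs per 10000, Cyp7a1 stood at 412, 543, 458, 111 and 346 CPM in time order. In these groups the 4 h library was not higher than fed throughout. From cells without Cyp2e1 to cells above 50, the log2 ratio of 4 h to fed was 0.52 (0.21 to 0.83), 0.01 (-0.17 to 0.20), -0.40 (-0.57 to -0.23) and 0.40 (0.31 to 0.48). The differences of the middle and neighbouring parts were thus not seen in the 2 middle groups (above 0 to 10, and above 10 to 50). In cells without Cyp2e1 the levels were 20.6 CPM and 14.3 CPM, both under the 21.0 CPM of the endothelial-marker barcodes. The 0.52 is not read as a difference. The groups differed in depth between these libraries, so cells with few Cyp2e1 UMIs are not strictly matched: in the same order the median UMI count was 5394, 6885, 2218 and 4311 in the fed library and 13396.5, 19129.5, 1991.5 and 10546 at 4 h. Above 50, the 16 h library was the low one, with a log2 ratio to fed of -1.89 (-2.02 to -1.76). The 24 h library had -0.25 (-0.41 to -0.09) here, against -1.12 over all hepatocytes. Such cells made up 11.5%, 20.2%, 11.3%, 18.9% and 3.78% of hepatocytes in time order. The level of Cyp2e1 itself was 1404 CPM in the fed library and 478 CPM at 24 h.

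**Figure D3:**
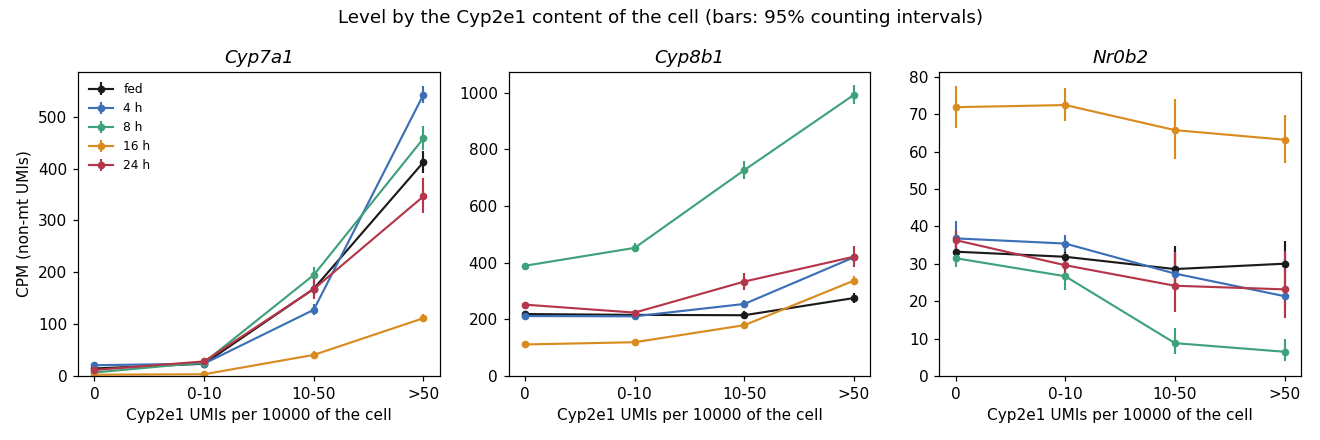
Level of Cyp7a1, Cyp8b1 and Nr0b2 in CPM among cells grouped by their Cyp2e1 UMIs per 10000 (0, up to 10, up to 50, above 50), 1 line per library, with 95% counting intervals. Above 50, Cyp7a1 lies between 346 and 543 CPM in 4 libraries and at 111 CPM at 16 h, and Nr0b2 lies at 6.46 CPM at 8 h and 63.2 CPM at 16 h.

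Cyp8b1 was nearly even along the axis in the fed library and rose toward the Cyp2e1 end from 4 h to 16 h. The log2 ratio between the outer parts was 0.16 (0.06 to 0.27) in the fed library. The 4 h library had 1.01 (0.93 to 1.09), the 8 h library 1.18 (1.11 to 1.25) and the 16 h library 1.62 (1.49 to 1.75). In the same libraries, the change from fed was 0.84 (0.71 to 0.97), 1.02 (0.89 to 1.14) and 1.46 (1.29 to 1.62). At 16 h the gene was lower than fed at the Cyp2f2 end (107 CPM against 217 CPM) and higher at the Cyp2e1 end (330 CPM against 244 CPM). The library level of Cyp8b1 at 16 h thus sums opposite differences. At 8 h it was higher than fed at both ends, by 0.86 (0.77 to 0.95) and 1.87 (1.79 to 1.96) on the log2 scale. The call at 4, 8 and 16 h held in all 13 other settings tried for the axis.

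Cyp27a1 and Cyp7b1 were higher at the Cyp2e1 end in the first 4 libraries. The log2 ratio of Cyp27a1 between the outer parts was 1.17, 1.17, 1.07 and 1.36 at 0, 4, 8 and 16 h. The change of this ratio from fed was within counting error at 4, 8 and 16 h. The Cyp7b1 ratio was 0.75, 0.68, 0.63 and 1.26, and only the 16 h value differed from fed beyond counting error (0.51, 0.35 to 0.67). Cyp27a1 stayed called in all 13 settings at 0, 4, 8 and 16 h. Cyp7b1 lost the call in 3 settings in the fed library, 2 in the 4 h library and 4 in the 8 h library. By Cyp2e1 content, more changes differed between the outer groups (none, and above 50 UMIs per 10000). The log2 ratio of Cyp27a1 to fed was 0.66 and 0.39 at 4 h and 1.27 and 0.99 at 8 h, without overlap. That of Cyp7b1 was -0.22 and -0.62 at 4 h and 0.11 and 0.36 at 16 h, also without overlap. At 16 h for Cyp27a1 and at 8 h for Cyp7b1 the intervals overlapped. The groups differed in depth between libraries. At 24 h the log2 ratio between the outer parts was 0.17 for Cyp27a1 and -0.14 for Cyp7b1, and neither was called. By Cyp2e1 content, both genes were still higher at 24 h in cells above 50 than in cells with none. Cyp27a1 stood at 334 and 141 CPM and Cyp7b1 at 115 and 61.6 CPM, without overlap. In the middle groups Cyp27a1 stood at 136 and 227 CPM and Cyp7b1 at 57.0 and 75.0 CPM. Across the parts of the axis, the Cyp7b1 level of the 24 h library was low throughout, at 59.2 to 71.4 CPM.

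Nr0b2 ran the other way. At 8 h it stood at 33.6, 32.5, 28.6, 22.0 and 7.51 CPM from the Cyp2f2 end to the Cyp2e1 end, a log2 ratio of -2.16 (-2.68 to -1.67). The lowest of these is under the level in the fed endothelial-marker barcodes (12.6 CPM, 4.62 to 27.4). At 4 h the ratio was -1.03 (-1.33 to -0.74), while in the fed library it was -0.10 (-0.39 to 0.19). The 8 h ratio differed from the fed ratio by -2.06 (-2.62 to -1.50) and the 4 h ratio by -0.93 (-1.33 to -0.53). These levels are under the 50 CPM minimum and are outside the calls, but the ratio passed 1.5-fold in all 13 other settings at both times. At 16 h Nr0b2 was high in all parts, from 57.9 to 73.3 CPM. Of all 25 parts measured, the Cyp2e1 end at 8 h had the lowest Nr0b2 level and the highest levels of Cyp8b1 (893 CPM) and Cyp27a1 (500.5 CPM). Cyp7a1 stood at 360.0 CPM there, near the fed 337 CPM (log2 difference 0.10) and below the 576 CPM of 4 h.

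Slc27a5, Baat, Slc10a1, Abcb11 and Nr1h4 changed little along the axis between 0 h and 16 h. Their log2 ratios lay between -0.52 (Abcb11 at 4 h) and 0.40 (Nr1h4 at 4 h), and none was called. Abcb11 was higher at the Cyp2f2 end at every one of these times, at -0.25, -0.52, -0.51 and -0.18. Grouped by Cyp2e1 content, cells without Cyp2e1 and cells above 50 stood at 164 CPM and 170.1 CPM in the fed library and at 269.6 CPM and 249 CPM at 16 h, with overlap, and at 245 CPM and 185 CPM at 4 h and 341 CPM and 232 CPM at 8 h, without. Slc10a1 at 16 h was flat, from 989 to 1030 CPM over the 5 parts.

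**Figure D4:**
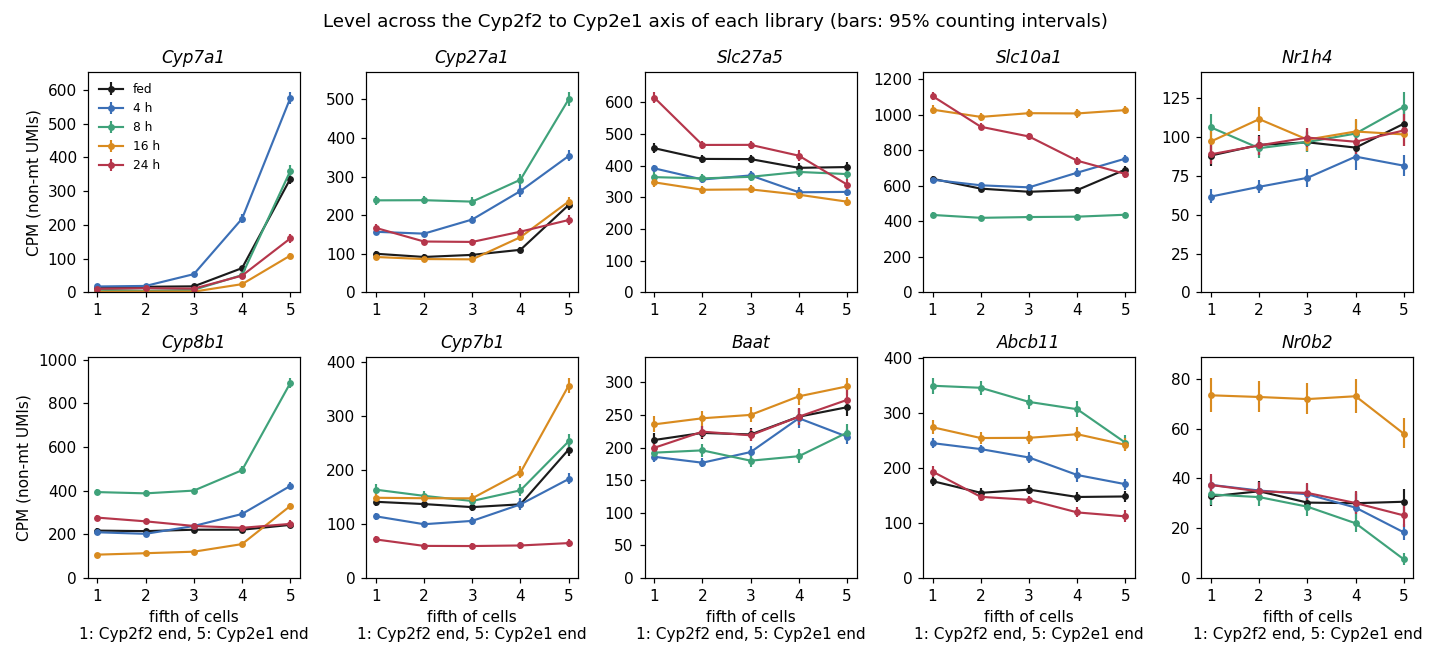
Level of each gene in CPM, from 0, across 5 equal parts of the cells of each library ordered from the Cyp2f2 end (1) to the Cyp2e1 end (5), 1 line per library, with 95% counting intervals. Cyp7a1 is highest in part 5 in every library, Cyp8b1 rises toward part 5 at 4, 8 and 16 h but not in the fed library, and Nr0b2 falls toward part 5 at 8 h.

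At 24 h the ends of the axis also differed in depth and quality. The median UMI count was 10152 at the Cyp2f2 end and 2854 at the Cyp2e1 end, and the median mitochondrial share 19.5% and 8.88%. In the fed library the share lay between 10.6% and 12.6% in all parts, and at 4 h between 15.6% and 20.8%. The 24 h log2 ratio was -0.85 for Slc27a5, -0.73 for Slc10a1 and -0.79 for Abcb11, all called higher at the Cyp2f2 end. With other landmark genes for the axis these became 0.12, -0.09 and 0.07, and Cyp27a1 went from 0.17 to 1.08. By Cyp2e1 content, the outer groups gave the other direction, comparing 173 cells above 50 Cyp2e1 UMIs per 10000 with 2782 cells with none. Slc27a5 stood at 568 CPM and 499 CPM, Slc10a1 at 1046 CPM and 940 CPM, and Abcb11 at 196 CPM and 155 CPM. Their intervals did not overlap, and the median UMI counts of the outer groups were 8469 and 9645. The middle groups (1367 cells above 0 to 10 and 254 above 10 to 50) lay below the cells with none. There Slc27a5 stood at 432 and 416 CPM, Slc10a1 at 786 and 926 CPM and Abcb11 at 130 and 138 CPM. In the 254 cells, Slc10a1 and Abcb11 overlapped the cells with none. The direction of these 3 genes at 24 h thus depended on how the cells were ordered and which groups were compared. With a lower mitochondrial limit of 5% the ratios were -0.43, -0.40 and -0.47, which ends all 3 calls, and with at least 5 axis UMIs per cell they were -0.48, -0.41 and -0.51. Among barcodes of 3000 to 12000 UMIs they were -0.65, -0.70 and -0.73, and the calls held.

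Counted together, 3 of the 9 members tested in the fed library were called higher at the Cyp2e1 end (Cyp7a1, Cyp27a1 and Cyp7b1), against 8.78% of all genes, and 0 at the Cyp2f2 end, against 3.25%. At 4 h, 8 h and 16 h, Cyp8b1 joined them and the count was 4, against 7.45%, 5.97% and 8.86%, with 0 members at the Cyp2f2 end, against 5.04%, 3.38% and 3.88%. At 24 h, 1 was called at the Cyp2e1 end (Cyp7a1), against 23.9%, and 3 at the Cyp2f2 end (Slc27a5, Slc10a1 and Abcb11), against 14.7%. The count of 3 became 0 with other landmarks, with the 5% limit and with at least 5 axis UMIs, and 5 with no lower limit.

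**Figure D5:**
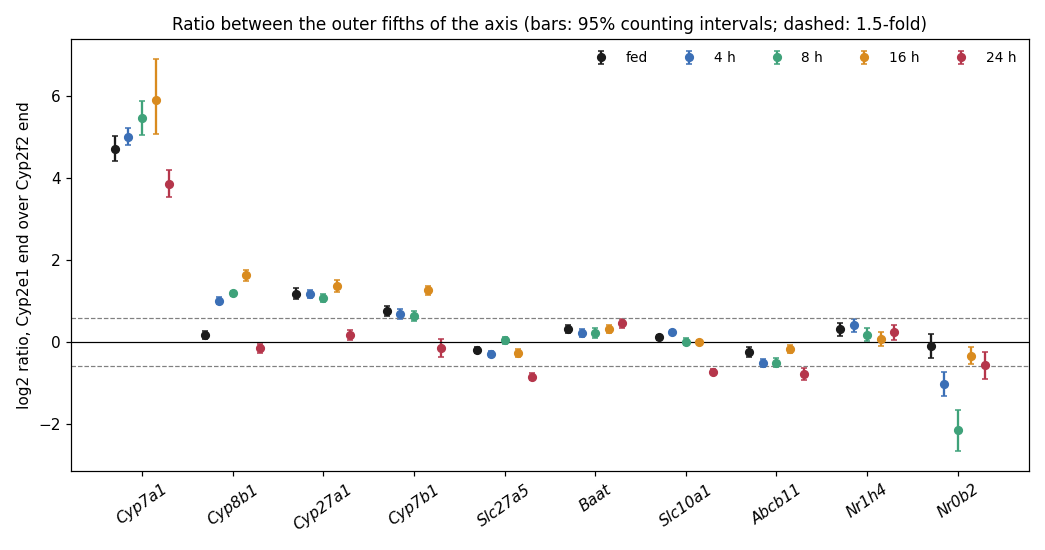
Log2 ratio of the Cyp2e1 end over the Cyp2f2 end of the axis for the 10 genes in the 5 libraries, with 95% counting intervals and 1.5-fold as dashed lines. Cyp7a1 lies between 3.86 and 5.92, Cyp8b1 goes from 0.16 in the fed library to 1.62 at 16 h, and Nr0b2 lies at -2.16 at 8 h.

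Other genes of the pathway were read from lists of later synthesis steps (17 genes), further transporters (19) and regulators (28). Of the later synthesis genes, 14 were measured at 50 CPM or more in some library, and 4 of these were called against fed at least once, where 27.1% of all genes measured so were called at least once. Hsd3b7, the next enzyme after the 7-alpha-hydroxylases, stood at 124, 141, 181, 414 and 78.8 CPM from 0 h to 24 h, with a log2 ratio to fed of 1.74 (1.69 to 1.79) at 16 h. Cyp2c70, which makes the mouse muricholic acids, stood at 253, 235, 155, 364 and 62.0 CPM, with -2.03 (-2.09 to -1.96) at 24 h. Akr1c6 had -1.92 at 24 h, and Slc27a2, an acyl-coenzyme A synthetase, -1.42 at 8 h. The axis was called toward the Cyp2e1 end for Hsd3b7 at 0, 4, 8 and 16 h (fed log2 ratio 1.43) and for Akr1c6 at all 5 times, and toward the Cyp2f2 end for Cyp39a1 (fed -1.49) and Hsd17b6 (fed -2.96) at all 5 times. Of the 14 tested later synthesis genes, 5 were called at the Cyp2e1 end of the fed axis (the others were Cyp2c70, Cyp3a11 and Acaa1b) and 2 at the Cyp2f2 end, against 8.78% and 3.25% of all genes. At 24 h the counts were 2 and 2, against 23.9% and 14.7%. Cyp3a11, Acaa1b, Cyp39a1 and Hsd17b6 were named after their values were seen.

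Of the further transporters, 14 reached 50 CPM in some library, and 6 of these were called at least once, against the same 27.1%. Slco1a1, an organic anion uptake carrier, stood at 283, 172, 291, 290 and 31.2 CPM, with a log2 ratio to fed of -3.18 (-3.27 to -3.09) at 24 h. Abcg8, which with Abcg5 exports cholesterol into bile, stood at 21.7, 45.1, 58.0, 67.4 and 72.4 CPM, and was called higher at 8 h (1.42), 16 h (1.63) and 24 h (1.74). The basolateral exporter Abcc3 had -1.74 at 8 h, and the flippase Atp8b1 -1.71 at 8 h and -1.60 at 24 h. Of the regulators, 19 reached 50 CPM, and 13 of these were called at least once, again against 27.1%. Dbp, a clock-driven activator, stood at 55.3, 6.17, 1.92, 79.7 and 62.9 CPM at clock hours 13, 17, 21, 5 and 13, and Nr1d1, a clock repressor (REV-ERB alpha), at 14.1, 3.38, 3.22, 125 and 8.94 CPM. The repressor Bhlhe40 had -2.42 at 8 h and the hepatocyte factor Onecut1 -2.07 at 16 h. Dbp was lowest at 4 h and 8 h, and its fed and 24 h libraries, which share the clock hour, lay near each other.

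Over the 3 lists, 2 of 42 tested genes were called higher and 3 lower at 4 h, 4 and 8 of 44 at 8 h, 3 and 2 of 41 at 16 h, and 5 and 7 of 43 at 24 h. The background shares are those given for the members above, and the median over the lists' genes (log2) was 0.01, 0.00, 0.30 and 0.07 in time order.

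Genes most like each member were taken as the 2 with the highest Pearson correlation of log2(CPM + 5) over the 25 parts (5 libraries by 5 parts), among 2674 genes with a mean of 50 CPM or more. The parts share libraries and depth, so the values are descriptions. For Cyp7a1 they were Cyb5a and Gsta3 (both r = 0.92), for Cyp8b1 Hpd (0.94) and Bhmt2 (0.92), and for Cyp27a1 Agxt2 and Cyp3a11 (both 0.94). Cyp7b1 was most like Cyp4a12a (0.97) and Plcxd2 (0.93), Slc27a5 like Cyp2d22 (0.90) and Agt (0.89), and Baat like Pex7 (0.91) and Ssu72 (0.90). Slc10a1 was most like Adtrp (0.97) and Npc1 (0.96), Abcb11 like Clock (0.92) and Insig2 (0.90), Nr1h4 like Hadha (0.86) and Trim25 (0.74), and Nr0b2 like Iigp1 (0.92) and Cfi (0.90). Among the members themselves, the 7 pairs with the largest r of either sign were Cyp8b1 and Cyp27a1 (0.88), Cyp8b1 and Nr0b2 (-0.84), Cyp27a1 and Nr0b2 (-0.69), Cyp7a1 and Cyp27a1 (0.67), Slc10a1 and Nr0b2 (0.67), Cyp8b1 and Slc10a1 (-0.64) and Cyp7a1 and Nr0b2 (-0.63).

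The members lie on 8 chromosomes of GRCm38 in GENCODE M21, where all 10 gene IDs were found. Cyp7a1 (chr4:6265612-6275633, minus strand), Baat (chr4:49489422-49506557, minus strand) and Nr0b2 (chr4:133553376-133556536, plus strand) share chromosome 4. Other annotated genes overlap Abcb11 (chr2:69238282-69342616, with an antisense gene and a processed pseudogene, both on the plus strand) and Cyp7b1 (chr3:18071950-18243338, with a small nuclear RNA gene), and none of these lies over the 3' end that the chemistry reads.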

How the data were processed

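The authors deposited UMI counts per gene and barcode for 5 single-cell libraries of mouse hepatocytes in 1 matrix, without normalization, made with Cell Ranger 6.0.1 per the file headers and on build mm10 per the submitters' processing notes. Which annotation version was used is not given in the sources used here. It held 73145285 entries above 0 over 32285 genes and 50000 barcodes, and a deposited table tied each barcode to its library, with 0 further columns of values left unused.

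The members, lists and rules were chosen with earlier results of these data known. Counts were summed over hepatocyte barcodes (1000 or more UMIs, 500 or more genes, 2% to 30% mitochondrial) and divided by their non-mitochondrial UMIs, as CPM. A gene was called between libraries at 2-fold with at least 50 CPM in either library, and along the axis at 1.5-fold between the outer of 5 equal parts of cells. The axis was log2 of Cyp2f2 over Cyp2e1 UMIs per 10000, each plus 1. Background shares are the same rules over all genes. Intervals are exact Poisson (levels), conditional binomial (ratios) and Clopper-Pearson (shares), the change of an axis ratio has a normal-approximation interval, and all cover counting error only. No doublet caller was run. Shares of cells with a UMI used cells thinned to 1000 UMIs.

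All members were named in every comparison. Of the other lists, up to 4 genes called against fed with the largest ratios were named, and for each member the 2 genes most like it. Libraries held between 40002260 and 68330252 UMIs in all. Calls and intervals were tested on simulated data. Alternatives were other mitochondrial, depth and doublet limits, denominators, scalings, minimums, landmarks and part numbers. Tools were pandas 2.3.3, scipy 1.17.1 and numpy 2.4.6 in python 3.11.15, with matplotlib 3.10.9 for plots.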

Additional observations from a re-analysis of the deposited data

Results flagged for a closer look

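For 2 genes the ratio between the outer parts of the Cyp2f2 to Cyp2e1 order had counting intervals on opposite sides of 0 in the fed and the 24 h library. The log2 ratio of the Cyp2e1 end over the Cyp2f2 end was 0.16 in the fed library and -0.16 at 24 h for Cyp8b1, and 0.11 and -0.73 for Slc10a1. With 1 library per time the difference was not tested, and with other landmark genes the 24 h values were 0.22 and -0.09. Grouped by Cyp2e1 content, neither gene changed direction between the outer groups. Cells above 50 Cyp2e1 UMIs per 10000 and cells with none had Cyp8b1 at 275 and 218 CPM fed and at 421 and 252 CPM at 24 h, and Slc10a1 at 786 and 603 CPM fed and at 1046 and 940 CPM at 24 h. In the middle groups (above 0 to 10, and above 10 to 50) Slc10a1 lay below the cells with none. It stood there at 569 and 597 CPM fed and at 786 and 926 CPM at 24 h. Cyp8b1 stood there at 215 and 214 CPM fed and at 223 and 333 CPM at 24 h. The ends of the 24 h axis differed in depth and mitochondrial share.

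Barcodes under 2% mitochondrial UMIs were left out of the hepatocytes compared above (they enter the setting with no lower limit and part of the endothelial-marker barcodes), and some members were higher there than in hepatocytes of the same library. Baat stood at 471 CPM in 2172 such fed barcodes (log2 ratio 1.04, 0.96 to 1.11), with 0.96 at 4 h, 0.85 at 16 h and 0.76 at 24 h, but -0.85 at 8 h. Nr1h4 had 0.26 at 4 h and 0.19 at 24 h, Nr0b2 had 0.14 at 24 h, and Cyp27a1 had 0.51 at 16 h, from 71 UMIs. In the same barcodes Slc10a1 was lower than in hepatocytes in all 5 libraries, between -2.93 and -1.80.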

How the results depend on the processing

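No paired analysis was possible because each time had 1 library and the labels carry no replicate numbers. Depth and the share of barcodes kept differed between libraries, no interval covers animals, and levels near 10 CPM rest on few UMIs. Of 448 counts of genes over all settings, 404 stayed within 1.5 times the reported count and 44 did not. Of 1490 values of single members, 900 moved by less than their counting interval, 588 by more, and 2 changed sign while called.

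Those 2 were the 24 h axis ratios of Slc27a5 (0.115) and Abcb11 (0.0668) with other landmark genes. For members higher at 4 h than fed (reported 0), the window of 3000 to 12000 UMIs, chosen after seeing the data, gave 2 (Cyp7a1 and Cyp27a1). For those higher at 16 h (1), a 15% mitochondrial limit gave 0. For those higher at 8 h than at 4 h (0), that limit, no lower limit, all UMIs as denominator, TMM scaling, median-of-ratios scaling and the mean of per-cell CPM each gave 1 (Cyp8b1). For those lower at 24 h than fed (2), the UMI window and both scalings gave 1, and for those lower at 24 h than at 16 h (2), both scalings gave 1.

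For members higher at the Cyp2f2 end at 4 h (0), the 15% limit gave 2, and no lower limit, the UMI window, leaving genes over 1% out of the denominator, the per-cell mean and a 10 CPM minimum gave 1. At 8 h (0), no lower limit, the window, the reduced denominator, other landmarks and the 10 CPM minimum gave 1. At 24 h (3), a lower limit of 5%, other landmarks and at least 5 axis UMIs gave 0, and no lower limit gave 5. At the Cyp2e1 end at 24 h (1), no lower limit and other landmarks gave 2.

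For other bile acid genes higher at 4 h (2), the 15% limit, no lower limit, all UMIs and the per-cell mean gave 0, the reduced denominator 1, and minimums of 10 CPM or none 4. For those lower at 4 h (3), the 15% limit gave 7 and no minimum 6. For those higher at 24 h (5), the 15% limit, the window, all UMIs and the per-cell mean gave 3, and for those lower at 16 h (2), no minimum gave 5. The cause was not tested in any of these.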

Other observations

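Low-mitochondrial barcodes held the members in unequal measure. Of the 10 genes, Slc27a5, Slc10a1, Abcb11 and Cyp7b1 were lower there than in hepatocytes in all 5 libraries beyond counting error. The log2 ratio of Slc27a5 ranged from -2.97 at 24 h to -0.54 at 16 h, that of Abcb11 from -2.28 to -1.42 and that of Cyp7b1 from -2.41 to -1.06. Cyp7a1 was within counting error of the hepatocyte level at 0, 8 and 16 h (-0.07, -0.28 and -0.08) and lower at 4 h (-0.93) and 24 h (-1.15).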
